A study of Mus musculus with 22 samples.

Results

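The Nr4a and Egr genes encode 2 small families of transcription factors that neurons switch on within minutes of strong activity. The 7 genes Nr4a1, Nr4a2, Nr4a3, Egr1, Egr2, Egr3 and Egr4 were taken by their symbol, and each was found in all 22 libraries, as 7 of the 24490 gene entries in every deposited table. No measured value was used in that rule. The libraries came from a study of CREB, the transcription factor that binds cAMP response elements, in which the serine S40 carries the sugar O-GlcNAc and the serine S133 is phosphorylated.

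Cortical neurons were taken from E16.5 embryos of C57BL/6 mice labelled Creb1-/- and sequenced at 7 days in vitro (DIV7). All of them had been silenced with 1 μM tetrodotoxin (TTX), which blocks sodium channels, and 100 μM D-AP5, which blocks NMDA receptors. They then received a herpes simplex virus (HSV) vector for 4 h or 8 h and were depolarized with 55 mM KCl for 2 h, which opens voltage-gated calcium channels. The transgene was GFP in control cultures and otherwise CREB, either wild-type (WT) or with alanine at S40 (S40A), at S133 (S133A) or at both serines (S40A-S133A). At 4 h there were 2 libraries each of GFP, WT and S40A; at 8 h there were 4 each of GFP, WT and S40A and 2 each of S133A and S40A-S133A. Every library was thus labelled Creb1-/- and depolarized, and none is labelled as unstimulated or as carrying an intact Creb1 gene. Creb1 was not at 0 in the 6 GFP libraries, which carry no CREB vector: it stood between 9.59 and 15.7 scaled FPKM, a level that by itself does not bear out the label. The sources used here do not say which part of the gene was deleted, and a value for the whole gene cannot show whether such a part is missing. The sources used here give neither the promoter that drives the transgene nor the share of neurons infected. Nor do the labels say that libraries of a group came from separate cultures, and p-values then measure no more than the spread among these libraries, which may be technical.

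Both families are immediate early genes: depolarization lets calcium in, calcium activates kinases, and kinases act on factors that already sit at the promoters, so that transcription starts without new protein synthesis. CREB at cAMP response elements and serum response factor (SRF) at CArG boxes are among the factors known to act there. Nr4a proteins are orphan nuclear receptors that bind DNA as monomers, and Nr4a1 and Nr4a2 also pair with retinoid X receptors, whereas Egr proteins are zinc finger factors that bind GC-rich sites and are held back by the corepressors Nab1 and Nab2.

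The promoters of 4 members are shown because the letters of the cAMP response element recur in them and because the members moved together in the libraries. Each line gives the 250 bases before the RefSeq transcription start in GRCm38.p6 (the mm10 assembly), read on the gene's own strand from 5′ to 3′. Capitals mark the core TGACG of the cAMP response element on either strand (TGACG or its reverse complement) and, in Egr2, the CArG box. The windows are chr15:101266596-101266845 on the plus strand for Nr4a1, chr2:57124004-57124253 on the minus strand for Nr4a2, chr10:67537619-67537868 on the plus strand for Egr2 and chr6:85513590-85513839 on the minus strand for Egr4.
Nr4a1: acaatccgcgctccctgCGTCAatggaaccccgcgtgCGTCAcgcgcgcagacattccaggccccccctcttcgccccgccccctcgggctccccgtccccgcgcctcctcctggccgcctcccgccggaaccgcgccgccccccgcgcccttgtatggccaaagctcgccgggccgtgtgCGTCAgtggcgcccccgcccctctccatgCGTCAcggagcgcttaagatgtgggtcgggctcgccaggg
Nr4a2: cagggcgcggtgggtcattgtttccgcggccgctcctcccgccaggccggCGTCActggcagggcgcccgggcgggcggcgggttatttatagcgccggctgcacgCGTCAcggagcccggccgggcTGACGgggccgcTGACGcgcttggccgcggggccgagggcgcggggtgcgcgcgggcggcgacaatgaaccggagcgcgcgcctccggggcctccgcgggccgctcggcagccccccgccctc
Egr2: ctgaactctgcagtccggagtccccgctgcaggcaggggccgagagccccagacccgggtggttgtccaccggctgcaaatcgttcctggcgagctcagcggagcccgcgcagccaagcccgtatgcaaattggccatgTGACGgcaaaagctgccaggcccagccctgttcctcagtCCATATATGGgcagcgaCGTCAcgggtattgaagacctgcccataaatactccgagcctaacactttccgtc
Egr4: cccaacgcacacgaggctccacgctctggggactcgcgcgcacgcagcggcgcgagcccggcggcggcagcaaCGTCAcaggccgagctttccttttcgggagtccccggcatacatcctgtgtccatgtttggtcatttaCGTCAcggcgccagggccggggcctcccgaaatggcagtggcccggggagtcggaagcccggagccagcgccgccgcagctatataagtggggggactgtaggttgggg

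The core TGACG occurred 4 times in the window of Nr4a1, at -233, -213, -69 and -40 from the start (the position of its most upstream base), and 4 times in that of Nr4a2. The window of Nr4a3 (chr4:48045055-48045304, plus strand, not printed because its RefSeq start lies 5943 bases outside the deposited locus) also held 4. Egr2 held 2, at -111 and -55, and Egr4 held 2, at -177 and -109. Among 32851 RefSeq promoter windows of the same length, 17.8% held at least 1 such core on either strand, 3.90% at least 2, and 0.137% (45 windows) at least 4. The complete palindrome TGACGTCA was in none of the 5 member windows and in 1.55% of all windows. The CArG box, the SRF site, was found in Egr2 only of these 5 windows (-72 to -63), against 1.47% of all windows. The site bound by Egr proteins, searched as GCGNGGGCG on both strands, was in the windows of Nr4a1 (-60 to -52) and Nr4a2 (-74 to -66) and in 4.70% of all windows. The Nr4a monomer site AAAGGTCA was in none of the 5 and in 1.34% of all. These matches describe letters in a window and no binding was measured. The 5 member windows were 61.6 to 80% G or C, and the shares of all windows are not matched for base content. Egr2 has 5 RefSeq windows, of which the one ending at the deposited locus was taken. No window of Egr1 or Egr3 is given.

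The numbers in the deposited file names place the libraries in 6 sets, called runs here, and each run holds 1 library of every virus in its set. Runs A and B were the libraries at 4 h (replicates 1 and 2). At 8 h, runs C1 and C2, with GFP, WT and S40A as replicates 1 and 2, made up an earlier library set, and runs D1 and D2 a later set with all 5 viruses. The submitters do not say what the runs were, and no set holds both times. Values are deposited FPKM (fragments per kilobase of transcript, relative to the fragments mapped in the library), scaled so that the libraries share the same median ratio over genes. Of 22 libraries, 17 were most like another library of the same run, and GFP_8h replicate 2 stood farthest from any other (highest correlation of 0.859). The files of run A also differed in form. Only there did 347 entries of each library carry a low-data status, and 14.6 to 15.5% of entries above 1 FPKM lay outside their own Cufflinks confidence interval, among them Nr4a1, Nr4a3 and Egr1 in all 3 libraries of that run. The run A files may have been made with other Cufflinks settings, and such a difference cannot be told apart from any other difference of run B from run A. Gapdh, a glycolytic gene of every cell, stood between 13.3 and 15.4 scaled FPKM in run A, at 131 in GFP_8h replicate 2, and between 0.704 and 1.59 in the other 18 libraries. The cause of this spread was not tested, and these values may not reflect the amount of Gapdh RNA. Neuronal markers (Tubb3, Map2, Rbfox3, Snap25, Syt1, Nefl) summed to between 720 and 1056 scaled FPKM, the 6 astrocyte and radial glia markers to between 63.1 and 711, the 6 oligodendrocyte lineage markers to between 24.7 and 108, the 7 microglial markers to between 3.32 and 25.5 and the 6 vascular and fibroblast markers to between 0.877 and 8.19. No marker of any list was at 0 in every library.

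The 7 genes fell into a high and a low tier. Over the 22 libraries, mean scaled FPKM was 319.9 ± 176 for Nr4a1, 307 ± 104 for Egr1, 202 ± 95.6 for Nr4a3 and 138 ± 81.5 for Nr4a2 (SD, n = 22). The lower tier held Egr4 at 64.3 ± 46.7, Egr2 at 24.6 ± 12.7 and Egr3 at 17.6 ± 14.6. FPKM is per length, so these levels can be compared between genes. Nr4a1 and Egr1 changed places between libraries: Nr4a1 was the higher of the pair in 8 of 22. Within the Nr4a family the order was fixed, with Nr4a1 above Nr4a3 and Nr4a3 above Nr4a2 in 22 of 22 libraries. Egr2 and Egr3 were less separated (Egr2 higher in 17 of 22), and Egr2 exceeded Egr4 in 5 libraries. The members also differed in range: the highest library exceeded the lowest by 5.32-fold for Egr1, 5.92-fold for Nr4a3, 7.61-fold for Nr4a2, 8.01-fold for Nr4a1, 14.8-fold for Egr3, 15.5-fold for Egr2 and 36.6-fold for Egr4.

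**Figure D1:**
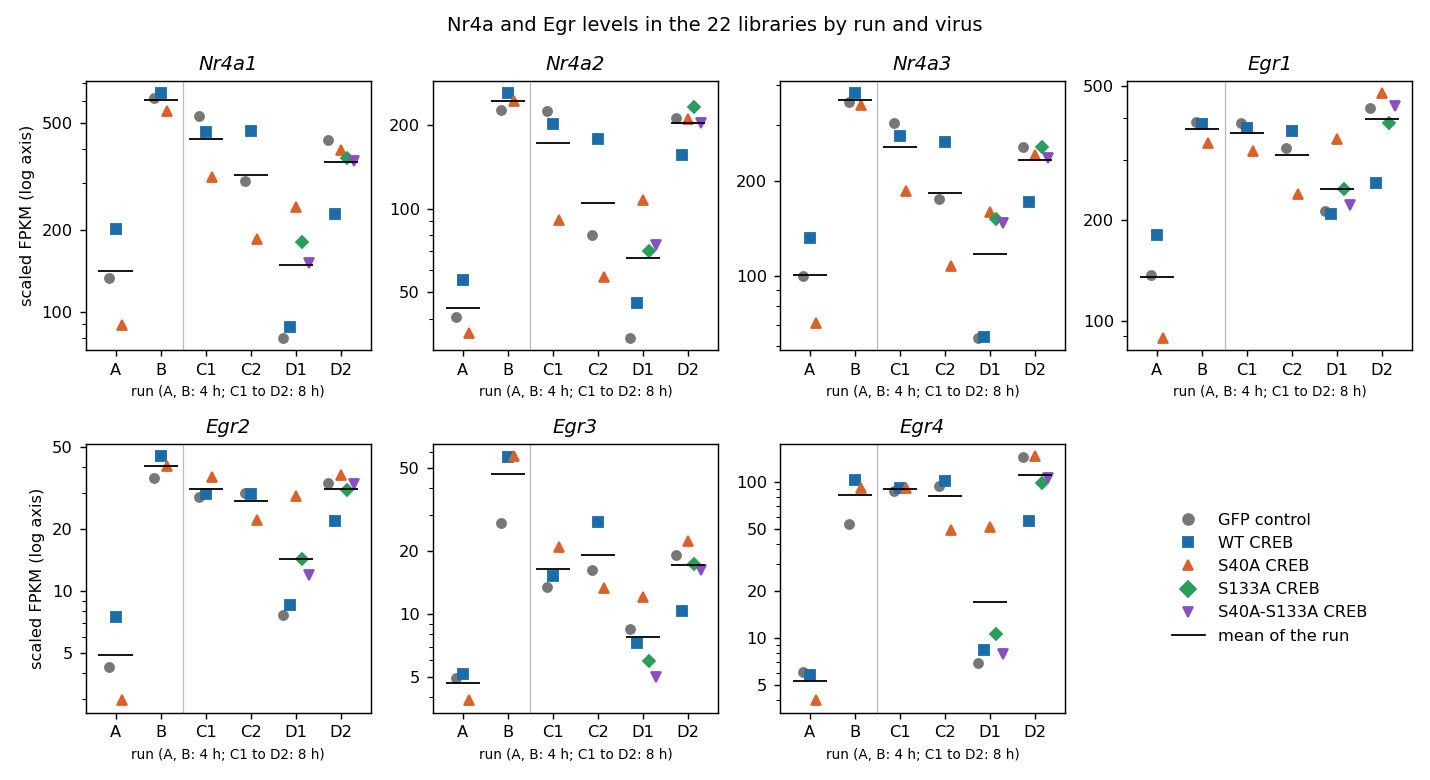
Scaled FPKM (log axis) of each of the 7 genes in the 22 libraries, by run on the horizontal axis and by virus in colour and symbol, with the mean of each run as a bar. Every gene has its lowest run mean in run A, and no library of run A reaches the level of run B.

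At 4 h, every member was far higher in run B than in run A, with the same 3 viruses in both. All 7 passed the test (limma, Benjamini-Hochberg adjusted p under 0.05 over 12097 genes, virus in the model), where 40.8% of all genes did, in either direction. Their median log2 difference was 2.47, where that of all genes tested was -0.01, and every run B library lay above every run A library for 7 of 7 members and for 31.0% of all genes. In these bulk libraries, fewer responding cells and less RNA per cell cannot be told apart. The count of members called rested on few libraries: it was 4 without WT_4h replicate 1 and 2 without S40A_4h replicate 1 or without S40A_4h replicate 2. Nr4a2 and Egr2 kept their call in all 12 alternatives run, and no member changed sign. Of all genes called, 2407 were higher and 2532 lower in run B. Without further scaling of the FPKM, 1145 were higher and 4909 lower and the median of all genes shifted by -0.24, while all 7 members were still called, with a median of 2.20.

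Nr4a1, also known as Nur77, an orphan receptor in activity responses of excitatory neurons, is encoded at chr15:101266846-101274794 (mm10, plus strand). In run A it stood at 134 scaled FPKM with GFP, 202 with WT and 89.1 with S40A, and in run B at 619, 642 and 553. The runs did not overlap, and the lowest value of each belonged to S40A. The log2 difference of run B from run A was 2.16 (SE 0.22, 95% interval 1.53 to 2.80, adjusted p = 0.0109), a 4.48-fold change. Nr4a2 (Nurr1), best known for the development of dopamine neurons, lies at chr2:57107226-57124003 on the minus strand. It read 40.7, 55.1 and 35.6 scaled FPKM in run A and 228, 260.4 and 244 in run B with GFP, WT and S40A. Its difference of 2.47 (SE 0.12, adjusted p = 0.00308) had the smallest p of the 7. Nr4a3 (Nor1), the third receptor of the family, at chr4:48051248-48083352 on the plus strand, read 100.0, 132 and 71.0 in run A and 354, 377 and 346 in run B, in the same order of viruses. It differed by 1.87 (SE 0.17, adjusted p = 0.00988), or 3.64-fold.

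Egr1 (Zif268), the most abundant Egr gene here and a common marker of active neurons, is at chr18:34861207-34864956 on the plus strand. Its scaled FPKM in run A was 137 with GFP, 179 with WT and 89.1 with S40A, against 389, 384 and 338 in run B. The gap between the runs was the narrowest of the 7 genes, a log2 difference of 1.50 (SE 0.19, adjusted p = 0.0144) or 2.83-fold. Egr2 (Krox20), also required for myelination by Schwann cells, at chr10:67537869-67542188 on the plus strand, rose from 4.29, 7.44 and 2.94 to 35.4, 45.4 and 40.5 scaled FPKM, a log2 difference of 2.88 (SE 0.21, adjusted p = 0.00659). Egr3, which neurons and muscle spindles need, at chr14:70077445-70082613 on the plus strand, read 4.97, 5.15 and 3.86 in run A. In run B it was 27.3 with GFP but 56.7 with WT and 57.2 with S40A, so that its GFP library lay apart from the CREB libraries there and not in run A. Its difference between the runs was 3.02 (SE 0.30, adjusted p = 0.0108). Egr4, known from male germ cell maturation as well as from neurons, at chr6:85511122-85513542 on the minus strand, moved most. It read 6.04, 5.83 and 4.00 in run A and 54.0, 102 and 91.4 in run B, a log2 difference of 3.70 (SE 0.28, adjusted p = 0.00708) or 13.0-fold.

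The same comparison held within each virus. With GFP the 7 genes were 2.84 to 8.94 times as high in run B as in run A, with WT 2.14 to 17.5 times and with S40A 3.79 to 22.9 times (1 library per run and virus). With interval mid-points in place of the FPKM of run A, an alternative chosen after the data were seen, all 7 were still called, with Egr1 at 1.58 and Nr4a3 at 2.00. Markers of dividing progenitors summed to between 94.0 and 165 scaled FPKM in run A and between 85.0 and 91.1 in run B, with 6 of 7 below 0 and 3 called lower, and the neuronal markers to between 720 and 851 in run A and between 861 and 965 in run B. Astrocyte and radial glia markers summed to between 231 and 711 in run A and between 164 and 269 in run B, with 5 of 6 below 0 and 1 called lower. Excitatory neuron markers summed to between 215 and 237 in run A and between 262 and 301 in run B, with 4 of 7 called higher and 1 lower. The calls in these marker lists stand beside 40.8% of all genes called, in either direction. Single genes weigh most in some sums. Among the dividing progenitor markers this was Sox2, with a mean of 44.9 scaled FPKM over the 22 libraries. Among the astrocyte and radial glia markers it was Fabp7, with a mean of 156. The part of these markers in the differences was not tested.

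At 8 h, all 7 genes were higher in run D2 than in run D1, across 5 viruses. Each was called (limma, adjusted p under 0.05), against 24.8% of all genes, with a median log2 difference of 1.21 beside -0.02 for all genes tested. Run D2 lay wholly above run D1 for 3 of 7 members (Nr4a2, Nr4a3 and Egr4) and for 9.82% of all genes. For each gene, the library of run D2 exceeded that of run D1 in 5 of 5 viruses. The number called was 4 without GFP_8h replicate 3, GFP_8h replicate 4, WT_8h replicate 3 or S40A_8h replicate 4, and 3 without replicate 1 or 2 of S133A_8h or of S40A-S133A_8h. Nr4a2, Egr2 and Egr4 kept their call in all 15 alternatives run. Egr1, Nr4a1, Nr4a3 and Egr3 lost it in 9, 8, 10 and 4 of them, with adjusted p up to 0.123, and no member changed sign. Of all genes called, 1280 were higher and 1715 lower in run D2. Without further scaling, 850 were higher and 3587 lower and the median of all genes shifted by -0.11, with all 7 members still called (median 1.09).

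Egr4 differed most. In run D1 it read 6.93 scaled FPKM with GFP, 8.46 with WT, 51.4 with S40A, 10.6 with S133A and 7.93 with S40A-S133A, and in run D2 144, 56.4, 146, 99.0 and 106 in that order. The S40A library of run D1 stood well above the other 4 of its run, and the WT library of run D2 below the other 4 of its own, yet the runs did not overlap. The log2 difference was 2.99 (SE 0.48, 95% interval 1.92 to 4.07, adjusted p = 0.00354), or 7.97-fold, and 28 of 12097 genes differed more.

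Nr4a1 in run D1 read 80.2 with GFP, 87.6 with WT, 243 with S40A, 182 with S133A and 151 with S40A-S133A, and in run D2 432, 229.9, 396, 371 and 359.9. The WT library of run D2 lay below the S40A library of run D1, and the other libraries kept apart. The log2 difference was 1.35 (SE 0.37, adjusted p = 0.0267), or 2.56-fold. Nr4a2 read 34.2, 45.7, 107, 70.1 and 73.8 in run D1 and 211, 157, 209, 233 and 203 in run D2, again in the order GFP, WT, S40A, S133A, S40A-S133A. These 2 sets of values did not overlap, and the difference was 1.69 (SE 0.40, adjusted p = 0.0144), or 3.24-fold. Nr4a3 read 63.7, 64.1, 159, 151 and 147 in run D1 and 254, 171, 241, 255 and 236 in run D2, a difference of 1.08 (SE 0.33, adjusted p = 0.0410). In run D1, the 3 libraries with a mutant CREB stood above the GFP and WT libraries for each Nr4a gene.

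Egr1 read 212, 208, 347, 246 and 220.2 scaled FPKM in run D1 and 429.9, 257, 474, 387 and 435 in run D2 (GFP, WT, S40A, S133A, S40A-S133A). The runs overlapped through the S40A library of run D1 and the WT library of run D2, and the difference of 0.68 (SE 0.21, adjusted p = 0.0397) was the smallest of the 7. Egr2 read 7.68, 8.54, 29.1, 14.4 and 12.0 in run D1 and 33.7, 21.9, 36.7, 31.1 and 33.3 in run D2. Its S40A library of run D1 reached into the range of run D2, and the difference was 1.21 (SE 0.27, adjusted p = 0.0124). Egr3 read 8.47, 7.27, 12.1, 5.99 and 4.98 in run D1 and 19.2, 10.4, 22.4, 17.5 and 16.2 in run D2, with the same overlap and a difference of 1.06 (SE 0.26, adjusted p = 0.0176). Unlike the Nr4a genes, Egr3 in run D1 was lower with S133A and S40A-S133A than with GFP.

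The amount of vector CREB differed between these runs as well. With CREB vectors, Creb1 stood between 568 and 757 scaled FPKM in 4 libraries of run D1 and between 1837 and 2312 in 4 of run D2. In the GFP libraries, which carry no CREB vector, Creb1 was 14.9 in run D1 and 11.2 in run D2, and there the 7 members were 2.03 to 20.7 times as high in run D2. Markers of dividing progenitors summed to between 26.3 and 49.4 scaled FPKM in run D1 and between 53.1 and 73.5 in run D2. Of these, 7 of 7 were above 0 and 2 called higher, where 24.8% of all genes were called in either direction. Markers of vascular cells and fibroblasts summed to between 1.05 and 2.99 in run D1 and between 4.64 and 8.19 in run D2. Neuronal markers summed to between 923 and 1056 in run D1 and between 848 and 959 in run D2. The part of these markers in the differences was not tested.

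**Figure D2:**
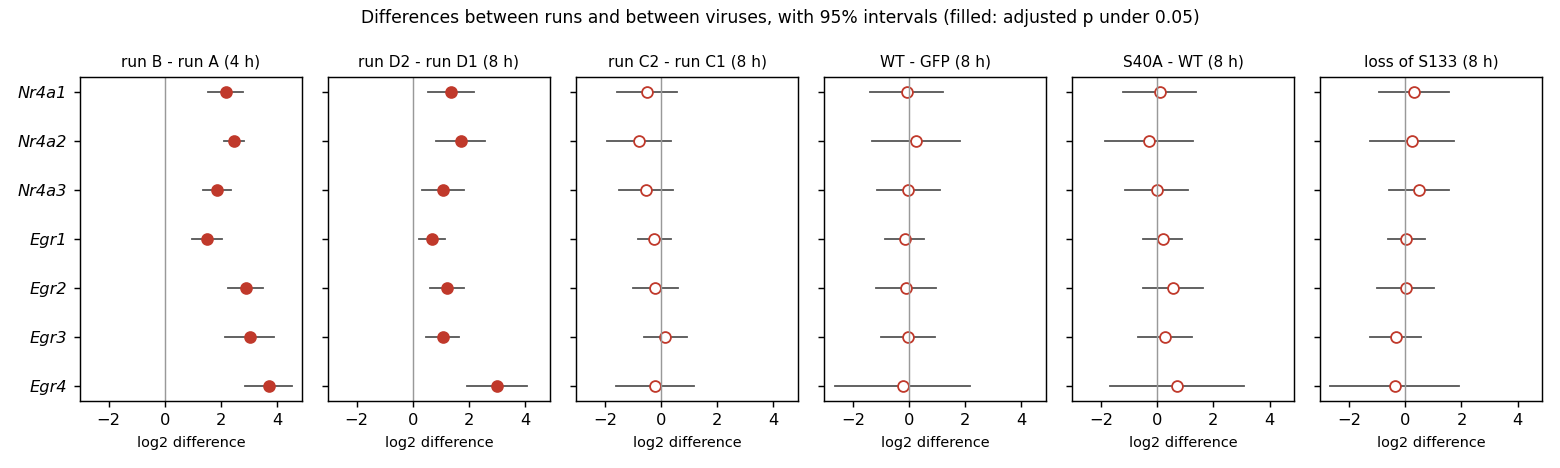
Log2 differences of the 7 genes between runs and between viruses, with 95% intervals as lines, and filled points for an adjusted p under 0.05 in limma. All 7 points are filled for run B against A and run D2 against D1, and none for run C2 against C1 or for the 3 virus comparisons at 8 h.

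Runs C1 and C2 differed less. None of the 7 genes was called between them (0 at an unadjusted p under 0.05), where the share of all genes called was 0% in limma and 1156 of 12097 had an unadjusted p under 0.05. In run C1, GFP, WT and S40A libraries read 530.2, 463 and 315 scaled FPKM for Nr4a1 and 225, 202 and 91.2 for Nr4a2. In run C2 they read 305, 467 and 186 for Nr4a1 and 80.3, 178 and 56.6 for Nr4a2. S40A was the lowest library of both runs for both receptors. Nr4a3 was also lowest with S40A, with 303, 277 and 185 in run C1 and 175, 265 and 107 in run C2.

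Egr1, Egr2 and Egr4 varied less in run C1 than the Nr4a genes did. Egr1 read 387, 373 and 320.5 in run C1 (GFP, WT, S40A) and 327, 367 and 238 in run C2. Egr4 was nearly level in run C1, at 87.6, 91.3 and 90.9, and spread from 49.5 with S40A to 93.6 with GFP and 101 with WT in run C2. Egr2 and Egr3 went against the Nr4a genes in run C1, where S40A was their highest library: Egr2 read 28.7, 29.7 and 36.0, and Egr3 13.5, 15.2 and 21.0. In run C2 S40A was their lowest, with Egr2 at 30.0, 29.8 and 22.3 and Egr3 at 16.2, 27.7 and 13.4. For the later against the earlier library set, 0 of 7 were called (limma; 0 at an unadjusted p under 0.05), against 0.0579% of all genes. All 7 differences lay below 0, from -0.12 for Egr1 to -1.04 for Egr4.

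Whether CREB, or the loss of either modified serine, changed these genes was addressed by the comparisons between viruses. None of the 7 passed the test in any of them, and in each the number at an unadjusted p under 0.05 was also 0. At 8 h, WT stood at 312 ± 186 scaled FPKM for Nr4a1 and 301 ± 82.0 for Egr1, beside 337 ± 194 and 339 ± 94.6 with GFP and 285 ± 91.0 and 345 ± 98.0 with S40A (SD, n = 4 each). S133A, with 2 libraries, stood at 276 ± 134 for Nr4a1 and 316 ± 99.7 for Egr1, and S40A-S133A at 256 ± 147 and 328 ± 152. Both mutants were read in runs D1 and D2 only, so these means cannot be set beside those over 4 runs. In those runs WT read 87.6 and 229.9 for Nr4a1, below both mutants in each (1 library each). For Egr1 it read 208 and 257, also below both. With library set in the model, S133A minus WT was 0.42 for Nr4a1 and 0.14 for Egr1. S40A-S133A minus WT was 0.27 and 0.14. For each of the 13 pairs of virus groups of the same time, 0 of 7 members were without overlap, where 7.03% of all genes were over all pairs, in either direction. At 8 h that share of all genes was 0.496% for WT and GFP, 3.16% for S40A and GFP, 7.88% for S133A and GFP and 9.24% for S40A-S133A and GFP. It was 2.74% for S40A, 5.96% for S133A and 6.14% for S40A-S133A against WT, and 9.47%, 9.89% and 8.67% for the 3 pairs of mutants. At 4 h it was 9.24% for WT and GFP, 9.55% for S40A and GFP and 8.98% for S40A and WT. For the members, part of this overlap was fixed by the runs. Each group at 4 h holds 1 library of run A and 1 of run B, which lay apart for 7 of 7. Each group at 8 h holds libraries of runs D1 and D2, which lay apart for Nr4a2, Nr4a3 and Egr4. In these cases the overlap says nothing about the viruses.

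With 0 of 7 members called by limma, WT minus GFP at 8 h called 0.00827% of all genes, S40A minus GFP 0.00827%, S133A minus GFP 0.0248% and S40A-S133A minus GFP 0.0165%. S40A minus WT called 0% of all genes, with 498 of 12097 at an unadjusted p under 0.05. S133A minus WT called 0.0165%, S40A-S133A minus WT 0.00827%, and the loss of S133 (S133A and S40A-S133A together against WT and S40A) 0.0248%, each with 0 of 7 members. The intervals were wide. For WT minus GFP at 8 h, the 95% interval of the log2 difference ran from -0.85 to 0.52 for Egr1, from -1.39 to 1.21 for Nr4a1, from -1.32 to 1.80 for Nr4a2 and from -2.62 to 2.16 for Egr4. For S40A minus WT, it ran from -0.49 to 0.88 for Egr1, from -0.50 to 1.62 for Egr2 and from -1.69 to 3.10 for Egr4. For the loss of S133, it ran from -0.61 to 0.70 for Egr1, from -0.59 to 1.54 for Nr4a3 and from -1.26 to 0.57 for Egr3. A change of 2-fold in either direction lay outside the interval for Egr1 in these 3 comparisons and inside it for Egr4 in each. This model holds no term for run, and intervals with such a term were narrower.

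At 4 h, with 2 libraries a group, the libraries of each group lay far apart, 1 in run A and 1 in run B. WT minus GFP was above 0 for 7 of 7 members (median 0.32) and S40A minus WT below 0 for 7 of 7 (median -0.50), with 0 called in limma in these and in S40A minus GFP, where 0.0909% of all genes were called in each of the 3. For Nr4a1 the 95% interval of WT minus GFP was -3.19 to 3.84, and for Egr4 -5.51 to 6.37. These intervals hold the gap between the runs, since the model has no term for run. With such a term they were -0.46 to 1.10 for Nr4a1 and -0.58 to 1.45 for Egr4. In each of the 3 comparisons 0 of 7 members were then called (limma). Between GFP at 8 h and GFP at 4 h, 0 of 7 were called (limma, 0 at an unadjusted p under 0.05), against 11.5% of all genes (841 higher and 556 lower, or 863 and 258 without further scaling). Differences ranged from -0.14 for Nr4a3 to 1.50 for Egr4. Time and library set cannot be told apart in that comparison.

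Taken within runs, the virus differences of the 7 genes moved together and changed sign between runs. S40A minus WT was below 0 for 7 of 7 genes in run A (median log2 difference of -0.88), 6 of 7 in run B (-0.16), 5 of 7 in run C1 (-0.22) and 7 of 7 in run C2 (-1.01). In runs D1 and D2 it was above 0 for 7 of 7 (medians 1.30 and 0.78). Each value compares 1 library with 1 other. The test of that change of sign, S40A minus WT in the later against the earlier set at 8 h, called 0 of 7 members (limma, 0 at an unadjusted p under 0.05) and 0.00827% of all genes. Its differences were positive for all 7, from 1.13 for Egr3 to 2.42 for Egr4, with adjusted p between 0.792 and 0.836. Egr1 came nearest, at 1.23 with a 95% interval of -0.03 to 2.49. This fit holds no term for run. With such a term, 6 of 7 had an unadjusted p under 0.05 in limma and 0 were called (adjusted p from 0.265 to 0.365). The share of all genes under that unadjusted p was not taken with the term, so the count is no result about the members. The change of sign was seen in the same libraries that enter this test, so the test is no independent support for it. The interval of Egr1 was then 0.61 to 1.84. In the same comparison without that term, the astrocyte and radial glia markers lay below 0 in 6 of 6 (median -1.56). The inhibitory neuron markers lay above 0 in 7 of 7 (median 0.55), with 0 called in either list. The part of these markers in the differences was not tested.

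**Figure D3:**
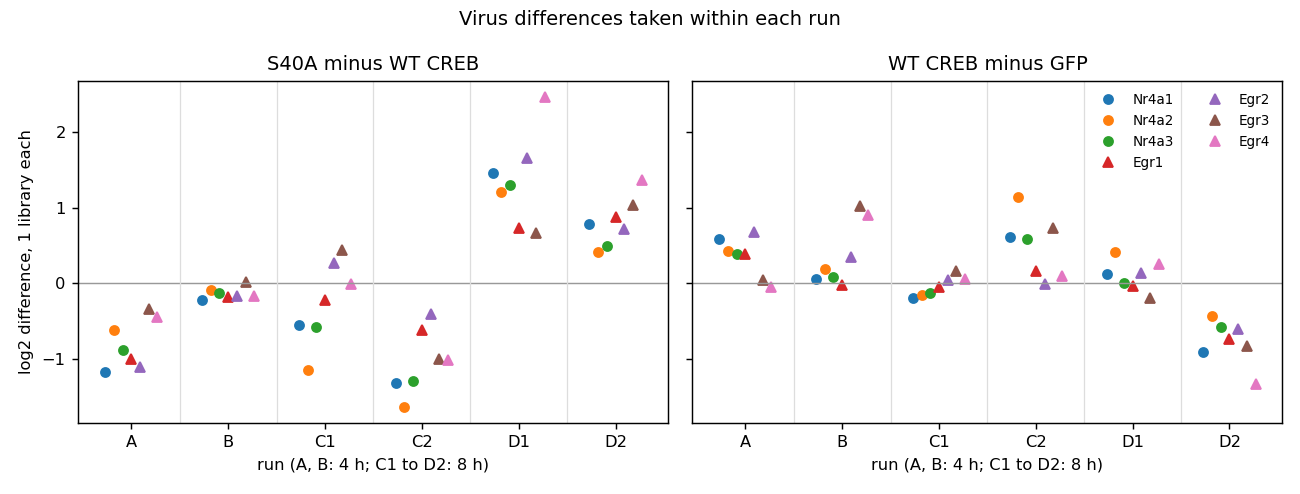
Log2 differences of S40A from WT (left) and of WT from GFP (right) in each run, 1 library each, with 1 point per gene. S40A minus WT lies below 0 for all 7 genes in runs A and C2 and above 0 for all 7 in runs D1 and D2.

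WT minus GFP had a median of 0.39 in run A, 0.19 in run B, -0.05 in run C1, 0.59 in run C2, 0.13 in run D1 and -0.74 in run D2, where 7 of 7 were below 0. Certain libraries were extreme for all 7 genes. The S40A library of run D1 was the highest of 5 for 7 of 7 genes, and the WT library of run D2 the lowest of 5 for 7 of 7. The S40A libraries of runs A and C2 were the lowest of 3 for 7 of 7. S133A minus WT had medians of 0.60 and 0.59 in runs D1 and D2, and S40A-S133A minus WT 0.44 and 0.60. Nr4a1, Nr4a2, Nr4a3, Egr1 and Egr2 were above WT in both runs with both mutants. Against GFP, S133A was above 0 for 6 of 7 genes in run D1 (median 0.83) and 2 of 7 in run D2 (median -0.13).

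Runs accounted for most of the spread of each gene. The share of the sum of squares of log2 values that lay between the 6 runs was 71.9% for Nr4a3, 76.6% for Nr4a1, 78.2% for Egr1, 79.9% for Nr4a2, 85.7% for Egr2, 86.2% for Egr3 and 87.8% for Egr4, with a median of 69.8% over all genes tested. Over the 16 libraries at 8 h, the share between 4 runs was 54.0 to 80.0% for the members (median of all genes 37.8%), and that between 5 viruses 0.881 to 17.5% (median of all genes 19.7%). Nr4a1 had the lowest share between viruses and Egr3 the highest.

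The 7 genes moved together from library to library. Over the 22 libraries, Pearson's r of log2 values for the 21 pairs ran from 0.77 (Egr1 with Egr3) to 0.98 (Nr4a1 with Nr4a3), with a median of 0.86. After the mean of each run was subtracted it ran from 0.25 to 0.96, with a median of 0.72. The lowest values were those of Egr3 with Nr4a1, Nr4a2 and Nr4a3 (0.38, 0.31 and 0.25), so within runs Egr3 followed the Nr4a genes only weakly. Libraries of a run share whatever set the runs apart, so these values are descriptions. By likeness to the mean of the 7 over 22 libraries, the nearest of 11135 other named genes were Fosb (r = 0.98), Junb (0.98) and Fos (0.97), which encode subunits of the AP-1 factor, then Coq10b, Cwc25, Zrsr1, Nfil3, Tiparp, Rgs7bp and Armcx4 (0.97 to 0.95). With run means subtracted they were Maff (0.95), Fosb (0.94), Junb (0.93), Zrsr1 (0.93) and Nfil3 (0.92). Single members had other neighbours. The 3 nearest were Junb, Gla and Nfil3 for Nr4a1, Tiparp, Tsc22d2 and Vps37b for Nr4a2, Gla, Armcx4 and Nfil3 for Nr4a3, and Cwc25, Cebpb and Fosb for Egr1. They were Fosb, Cebpb and Cwc25 for Egr2, Lrrc4, Erf and Sp9 for Egr3, and Kcnf1, Rgs7bp and Klf4 for Egr4, all with r between 0.93 and 0.98.

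Between runs D1 and D2 the members changed relative to each other. Ratios to Egr1 in the same library are given as a description with no test, since Egr1 was chosen as the member with the smallest change. Egr4 was 0.0327 to 0.148 times Egr1 in run D1 and 0.219 to 0.334 times in run D2, a difference of 2.43 on the log2 scale. Nr4a2 was 0.161 to 0.335 times Egr1 in run D1 and 0.442 to 0.608 times in run D2 (difference 1.03), and Nr4a1 0.378 to 0.740 and 0.827 to 1.01 times (difference 0.68). For each of these 3 the runs did not overlap. The share of all genes whose ratio to Egr1 kept the runs apart was not taken, so this is no result about the members. The ratios of Egr2, Egr3 and Nr4a3 overlapped between the runs, with differences of 0.60, 0.48 and 0.41.

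**Figure D4:**
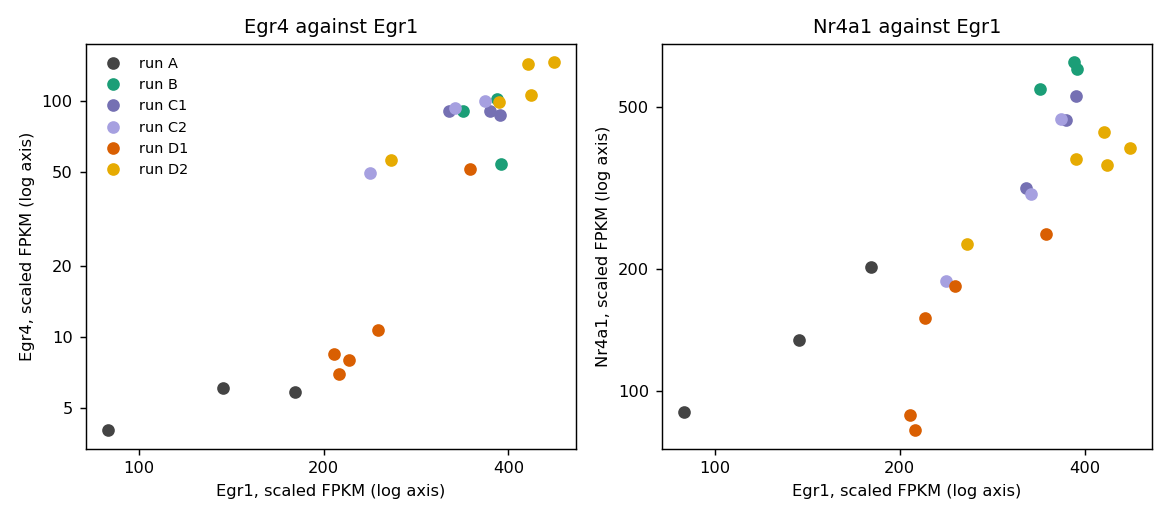
Egr4 (left) and Nr4a1 (right) against Egr1 in the 22 libraries, as scaled FPKM on log axes, coloured by run. Egr4 is at or below 10.7 in all libraries of run A and in 4 of 5 of run D1, and above 49 in all others. In those 4 libraries of run D1, Egr1 lies between 208 and 246.

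Other genes of the pathway were read from lists. Of 15 other immediate early factors tested, 15 were above 0 in run B against run A and 12 were called higher, with a median log2 difference of 1.78. Over all genes, 2407 of 12097 were called higher there. In run D2 against D1, 14 of the factors were above 0 and 12 called higher (median 1.16), beside 1280 of 12097 genes. In run C2 against C1 only 2 of the factors were above 0 with 0 called (limma). The largest changes in run B were in Fosb (2.87, adjusted p = 0.00991), Fosl2 (2.57, 0.00489), Atf3 (2.23, 0.00808) and Btg2 (2.19, 0.00674). In run D2 they were in Fosl2 (2.23, adjusted p = 0.0120), Maff (1.81, 0.00417), Csrnp1 (1.58, 0.00243) and Atf3 (1.38, 0.00129). Fos, which encodes the best known immediate early factor, differed by 1.75 (adjusted p = 0.0119) in run B and by 0.72 (0.0777, not called) in run D2.

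Neither Egr corepressor was called higher with the Egr genes. Nab2, itself an Egr target, fell by 0.93 on the log2 scale in run B (adjusted p = 0.0261), from 7.04 ± 1.21 to 3.21 ± 0.47 scaled FPKM (SD, n = 3 each; the limit on run A given above applies), and differed by 0.46 (0.249) in run D2. Nab1 differed by -0.07 (adjusted p = 0.579) in run B and 0.51 (0.0911) in run D2. Of the 3 retinoid X receptors that pair with Nr4a1 and Nr4a2, 0 were called in either comparison (limma): Rxrb, the most abundant, stood at 24.4 ± 1.09 and 23.8 ± 0.86 in runs A and B and at 31.7 ± 1.33 and 28.8 ± 0.75 in runs D1 and D2. Rxra differed by 0.02 in run B and 0.08 in run D2, and Rxrg by -0.27 and -0.19.

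Of 9 reported Egr targets tested, 4 were called higher and 2 lower in run B (40.8% of all genes called), and 2 higher and 3 lower in run D2 (24.8%). Arc, a synaptic protein, was among the higher in both, by 0.90 (adjusted p = 0.00517) and 1.34 (0.00154). Of 14 factors and cofactors at cAMP response elements and serum response elements, 6 were called higher and 1 lower in run B and 3 higher and 1 lower in run D2. Unlike those of the 9 targets, these shares were near those of all genes. Srf itself was higher by 0.64 (adjusted p = 0.0174) in run B and 0.62 (0.0205) in run D2. Creb1, which here is read largely from the vector, differed by 0.20 (adjusted p = 0.148) in run B and 1.29 (0.0149) in run D2. Of 14 kinases upstream, 5 were called higher and 1 lower in run B, a share near the 40.8% of all genes, and 0 in run D2, where 24.8% of all genes were (limma). In all 11 virus comparisons, 0 of these 15 immediate early factors, 9 targets and 2 corepressors were called. Of the other lists, Creb1 alone was called there, in 6 of the 11.

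Counting error was small beside these differences. The deposited Cufflinks intervals spanned 0.946 to 19.4% of their mid-point on either side for the members, widest for Egr4 at its lowest level. Outside run A, the intervals of genes with few fragments fell at whole fragment counts (within 0.05 of a fragment) for 63.4 to 74.2% of genes, and on that scale the members with a single start rested on 444 (Egr4) to 44710 (Nr4a1) fragments. Relative depth of those 19 libraries differed by 1.64-fold. In run A that share was 8.15 to 8.71%, so no fragment number is given there. The intervals describe error within a library and not the spread between libraries. They were at least 4.34% on either side for Nr4a2, which has 2 start groups, and at least 1.05% for Egr1, and may hold more than counting error.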

How the data were processed

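Deposited FPKM per gene, with Cufflinks confidence limits, were made by the authors with CASAVA 1.7, Bowtie 0.12.2 and Cufflinks, per the submitters' processing notes, which name the builds mm8 and mm10 without their roles; the coordinates in the file headers and columns match mm10. The 22 tables of 24490 entries were joined, and 23 entries with a failed estimate were removed. FPKM were scaled by the median of ratios over 14290 genes, and log2(scaled FPKM + 1) was tested for 12097 genes whose mean FPKM reached 1, among them all 7 members. Folds are on that log2(value + 1) scale and understate changes of low genes.

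Tests used limma 3.58.1 in R 4.3.3 (mean-variance trend, two-sided moderated test, Benjamini-Hochberg adjustment over all 12097 genes, called under 0.05). At 8 h the model held virus and library set over 16 libraries; at 4 h, virus over 6; for time, all 22; for runs, virus and run. The members and the gene lists were chosen with earlier results of these data known. Named genes were all members, listed partners (Nab1, Nab2, Rxra, Rxrb, Rxrg, Arc, Fos, Srf, Creb1), at most 4 called list genes by size, and the genes most like the members by Pearson's r. Same-numbered libraries deviated together at 4 h (r of 0.545 to 0.563) but not in every pair at 8 h (-0.041 to 0.053 and 0.067 to 0.397), so the replicate number was not used as a block. That reason does not hold at 4 h, where the block was left out as well. Intervals of the virus comparisons therefore include the gap between runs, and results with the block are given as an alternative.

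Alternatives were a pseudocount of 0.1, no scaling, upper-quartile scaling, no filter, other model terms, leaving out each library, and the replicate block. The sources used here do not say whether counting used strand. Genome sequence of Egr1 was not used here.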

Additional observations from a re-analysis of the deposited data

How the results depend on the processing

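In the 11 comparisons between viruses, in time, in run C2 against C1, between library sets and in S40A minus WT by set, the number of members called remained 0 under every alternative run. With the replicate block it was 0 of 7 in each virus comparison, and calls over all genes went from 11 to 10, 8 and 7 in the 3 comparisons at 4 h and from 1 to 2 in S40A minus WT by set. Leaving out 1 library at a time, members called ranged from 2 to 7 in run B against A and from 3 to 7 in run D2 against D1; these fits hold fewer libraries. Under the other alternatives it was 7 in both, except that with no filter on low values, where 20376 genes were tested, it was 5 in run D2 against D1. The background counts moved more. Over all genes, leaving out 1 library gave 482 to 5339 calls in run B against A (4939 with all), 1588 to 3093 in run D2 against D1 (2995), 0 to 230 in run C2 against C1 (0), 293 to 1427 in GFP 8 h minus GFP 4 h (1397), 1 to 8 between sets (7), 5 to 10 in S40A minus WT by set (1), at most 11 in the virus comparisons at 8 h (at most 3) and 20 to 34 in those at 4 h (11 each). With interval mid-points in run A the 3 comparisons at 4 h called 0 genes, with GFP libraries only the comparison of times called 60, and with the later set only the virus comparisons at 8 h called 1 to 6. With no filter, 102 genes were called between sets, 3 in run C2 against C1, 4 in S40A minus WT by set, 4 in S40A minus WT at 4 h, 2 in S40A-S133A minus WT and 5 for the loss of S133. Upper-quartile scaling gave 14 between sets and no scaling 4, and no virus term 1 in run C2 against C1. Of 1610 member values, 200 changed sign, 174 of them on leaving out a library, and none of the values called in the report did. With the replicate block, standard errors of the members were 0.492 to 0.741 times as large in the virus comparisons at 8 h and 0.102 to 0.251 times at 4 h. The interval of Egr4 in WT minus GFP was then -1.43 to 0.98 at 8 h and -0.58 to 1.45 at 4 h. In S40A minus WT by set, 6 of 7 members had an unadjusted p under 0.05 with the block against 0 without it, with adjusted p from 0.265 to 0.365 in limma. The share of all genes under that unadjusted p was not taken with the block. The numbers are not known to pair the libraries.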
